A study of Mus musculus with 13 samples.

Results

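The genes described here are 9 receptors and surface proteins that mark endothelial cells and their mesodermal precursors: Kdr, Flt1, Nrp1, Tek, Aplnr, Eng, Cdh5, Pecam1 and Cd34. They were taken as every probe set of the deposited table that the platform annotation gives to exactly 1 of these symbols, which found 18 probe sets among 45037 that are not controls, and 9 genes among 18193 with a probe set of 1 symbol. Kdr, Tek, Pecam1 and Cd34 had 1 probe set each, Cdh5, Aplnr and Eng had 2 and Flt1 and Nrp1 had 4. Each gene is represented by its brightest probe set, and the others are given beside it.

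Total RNA of mouse cells was hybridised to 13 arrays of 1 type, 1 array per sample. The cells carried a green fluorescent reporter of Stella, the protein made by the germ cell gene Dppa3. Embryonic stem cells (ESC) were hybridised after sorting, as Stella-negative (3 arrays) and Stella-positive (2 arrays) cells, and without a sort (2 arrays). Cells of embryoid bodies at day 7 were likewise sorted into Stella-negative and Stella-positive cells and gave 2 and 4 arrays. Embryoid bodies are aggregates in which ESC differentiate, and the labels describe their Stella-positive cells as primordial germ cells made in vitro. The ESC carry no label of age or treatment, and no strain, clone or sex is stated in the labels used here. The array description file of 1 Stella-positive ESC array names a BAC reporter, which the other files do not. The comparisons ask how far the 9 genes followed the Stella sort at day 7 and in ESC, and how far they followed differentiation within each sorted fraction. Whether arrays of a group stem from separate cultures is not stated, and each p-value here speaks only of the variation between arrays, which may be technical.

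Endothelial cells arise in the embryo from mesodermal precursors, some of which also give rise to blood. Kdr, the main signalling receptor of vascular endothelial growth factor A (VEGF-A), is switched on in these precursors, and embryoid bodies form vessels and primitive blood cells in much the same sequence. As the cells mature they assemble junctions through VE-cadherin, the product of Cdh5, and display PECAM-1 and CD34. Not every such protein is restricted to vessels: PECAM-1 is also found on mouse ESC and primordial germ cells, and CD34 on blood progenitors.

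The start-site regions of 4 of the genes are shown because 3 of these genes, Kdr, Nrp1 and Cd34, fell in the Stella-positive day 7 cells, while Tek is the receptor nearest to the threshold that was not called. RefSeq promoters, 250 bases before to 50 bases after the annotated start on build GRCm38.p6, were at hand for 6 of the 9 genes and are not used here for Cdh5, Pecam1 and Aplnr. Capitals mark GGAAG or its reverse complement CTTCC, the core word of ETS transcription factors, a family with endothelial members. The Kdr region is chr5:75978406-75978705 on the minus strand, the Nrp1 region chr8:128358823-128359122 on the plus strand, the Cd34 region chr1:194938571-194938870 on the plus strand and the Tek region chr4:94739039-94739338 on the plus strand.
Kdr: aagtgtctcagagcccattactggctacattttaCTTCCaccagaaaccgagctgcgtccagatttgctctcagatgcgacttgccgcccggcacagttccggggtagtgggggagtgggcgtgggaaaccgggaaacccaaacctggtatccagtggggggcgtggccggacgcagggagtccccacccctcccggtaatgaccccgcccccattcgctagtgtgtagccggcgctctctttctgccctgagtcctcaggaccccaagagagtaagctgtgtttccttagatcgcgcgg
Nrp1: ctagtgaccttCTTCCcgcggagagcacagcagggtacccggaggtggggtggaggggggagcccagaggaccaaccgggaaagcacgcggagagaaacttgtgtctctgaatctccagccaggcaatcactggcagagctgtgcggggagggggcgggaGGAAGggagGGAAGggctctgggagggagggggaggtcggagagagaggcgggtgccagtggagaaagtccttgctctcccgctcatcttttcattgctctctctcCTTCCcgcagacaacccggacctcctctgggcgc
Cd34: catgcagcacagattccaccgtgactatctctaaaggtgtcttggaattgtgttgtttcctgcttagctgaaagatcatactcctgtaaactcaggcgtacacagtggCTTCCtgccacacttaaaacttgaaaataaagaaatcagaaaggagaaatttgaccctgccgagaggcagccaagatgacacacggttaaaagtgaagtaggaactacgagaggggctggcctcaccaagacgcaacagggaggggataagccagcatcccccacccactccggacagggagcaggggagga
Tek: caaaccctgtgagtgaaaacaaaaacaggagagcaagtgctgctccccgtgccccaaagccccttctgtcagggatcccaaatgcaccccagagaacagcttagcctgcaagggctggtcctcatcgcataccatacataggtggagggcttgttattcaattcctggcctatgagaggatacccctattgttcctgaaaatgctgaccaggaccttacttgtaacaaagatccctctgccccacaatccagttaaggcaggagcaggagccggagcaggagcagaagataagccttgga
Counted on both strands, the ETS word occurred once in the Kdr and Cd34 regions, 4 times in Nrp1 and 0 times in Tek. It was present in 5 of the 6 regions, Flt1 and Eng included with 3 and 2 matches, and in 71.1% of all 27025 promoters of the same length. The regions of Flt1, which was also called lower, and of Eng, which was not called, are counted but not shown. The GATA word GATAA was found in 2 of the 6, Cd34 and Tek, against 25.8% of all promoters. The E-box CANNTG was found in 3, against 72.1%, the GC box GGGCGG in 3, against 35.9%, and TATAAA in 1, Flt1, against 14.2%. The word AACAGGAA, in which a GGAA core is preceded by forkhead-like letters, was in 0 of the 6 and in 2.58% of all promoters. AACAGGAA can overlap GGAAG by its last letters. A match is a string of letters and not a measured binding site.

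The deposited signal was linear MAS5 intensity, and the arrays were brought to a common trimmed mean of 105.2 before any comparison. All 9 genes were tested, through 17 of the 18 probe sets. A Cdh5 probe set, 1422047_at, failed the filter on dim probe sets, which asks for 2 or more arrays with a signal over the median of that array. Differences are on the scale log2(signal + 10.5), which understates the change of dim genes, and a gene was called where limma's p, adjusted over all 30023 tested probe sets by the Benjamini-Hochberg method, was under 0.05. The reporter sort was visible in Dppa3, whose day 7 signal was 74.6 and 101 in negative and 728 to 1138 in positive cells. The day 7 positive arrays did not look alike. Arrays 1 and 2 had deposited trimmed means of 82.9 and 71.7 and arrays 3 and 4 only 29.1 and 8.48, and their ratios of 3′ to 5′ actin signal, which rise as RNA or its labelled product shortens, were 2.04 and 2.17 against 4.89 and 5.16. On the 2 negative day 7 arrays this ratio was 5.48 and 5.85, and on the 7 ESC arrays 1.12 to 1.23. The same ratio for Gapdh was 1.32, 1.23, 1.65 and 2.09 on positive day 7 arrays 1 to 4. It was 3.03 and 3.18 on the negative day 7 arrays and 0.80 to 0.87 on the ESC arrays. All day 7 arrays were hybridised on another day and from another chip lot than the ESC arrays, so differences of day 7 from ESC and of these days and lots cannot be told apart. Both ratios were also higher on each day 7 array than on any ESC array. Differences of day 7 from ESC and of RNA quality by these ratios thus cannot be told apart either.

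At day 7, 6 of the 9 genes were lower in Stella-positive than in Stella-negative cells and none was higher. Kdr, Flt1, Nrp1, Aplnr, Cdh5 and Cd34 fell, by 3.88-fold (Cdh5) to 22.9-fold (Aplnr), while Tek, Eng and Pecam1 were not called. Of all 14007 genes tested, 9.07% were called lower and 10.2% higher in this comparison. The median difference of the 9 genes was -2.18 and that of all tested genes -0.09. The arrays of the groups did not overlap for 8 of the 9 genes, all of them lower in the positive cells, against 22.9% of all tested genes with non-overlapping arrays in that direction. In such mixed samples, fewer endothelial cells and less of their RNA per cell cannot be told apart. The Gapdh ratio also differed between these groups without overlap, so the sort and RNA quality by that ratio cannot be told apart.

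**Figure D1:**
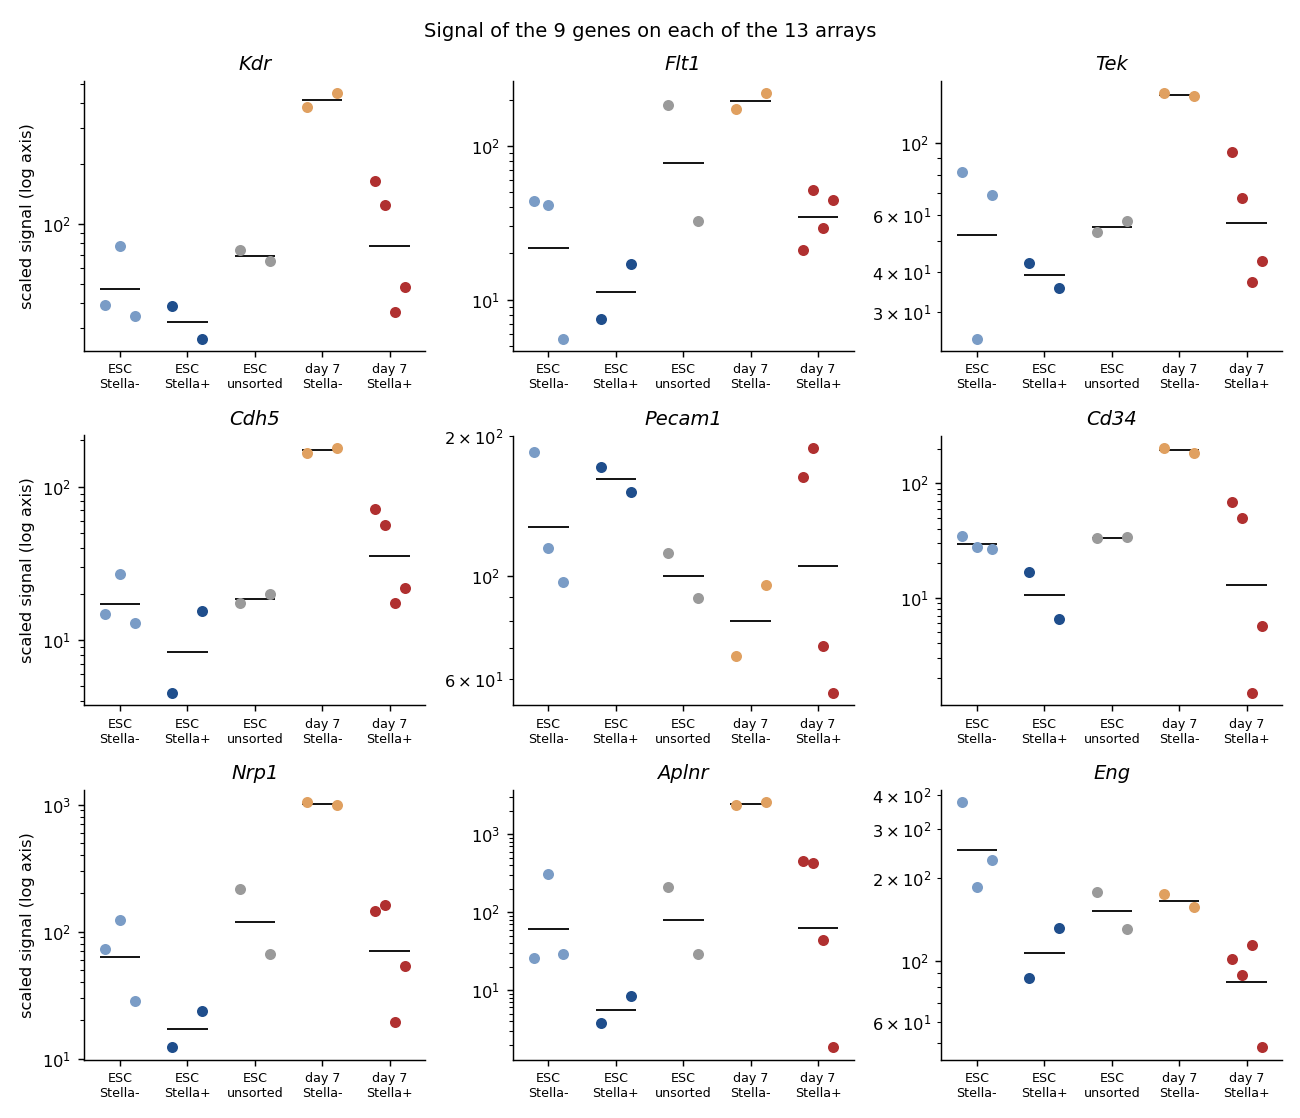
Scaled signal (log axis, arbitrary units) of the representative probe set of each gene on each of the 13 arrays, with points as single arrays and bars as geometric means of a group. Kdr, Nrp1, Aplnr, Cdh5 and Cd34 stood highest in the Stella-negative cells of day 7, with Kdr at 385 and 449, while Pecam1 and Eng did not.

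Among the VEGF receptors, Kdr gave a signal of 385 and 449 in the Stella-negative cells of day 7, against 163, 125, 36.1 and 48.3 in the Stella-positive cells. The lowest negative array was thus above the highest positive one, and the positive arrays spread widely among themselves. The log2 difference was -2.25 ± 0.44 (SE, limma, n = 2 and 4, adjusted p = 0.00297), a fall of 4.76-fold. Flt1, a high-affinity VEGF receptor with weaker kinase activity that also exists as a soluble form, gave 175 and 220 on the negative arrays. Its signal on the positive arrays was 21.1, 51.9, 29.2 and 44.6, above the array's own median on only 1 of the 4. The difference was -2.18 ± 0.56 (limma adjusted p = 0.0143). Flt1 differed from Kdr in that its positive arrays did not fall into the same high and low pairs.

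The other 3 probe sets of Flt1 did not pass the test. Probe set 1419300_at gave 61.5 and 52.3 against 33.0, 9.09, 2.75 and 5.56, without overlap, with a difference of -1.70 ± 0.60 (limma adjusted p = 0.0604). Probe set 1440926_at differed by -0.78 ± 0.47 and 1454037_a_at by -0.02 ± 0.47, both with overlapping arrays (limma adjusted p = 0.275 and 0.981). When the probe sets of a gene were averaged, Flt1 was no longer called, at -1.17 (adjusted p = 0.0680). The fall of Flt1 therefore rested on 1 probe set of 4.

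Nrp1, the co-receptor that VEGF-A shares with the guidance cue semaphorin 3A, gave 1043 and 987 on the negative arrays. On the positive arrays it gave 147, 161, 19.6 and 54.1, at most 15.8% of the negative mean. The difference was -3.59 ± 0.61 (limma adjusted p = 0.00106), a fall of 12.1-fold. Of the other Nrp1 probe sets, 1448944_at differed by -2.89 ± 0.56 and 1418084_at by -1.95 ± 0.51, both called lower (limma adjusted p = 0.00258 and 0.0167). Probe set 1457198_at overlapped, with 51.8 and 96.9 against 53.6, 28.4, 3.05 and 3.93, and was not called (-1.63 ± 0.57, limma adjusted p = 0.0586).

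Aplnr, the G protein-coupled receptor of apelin that is found in early mesoderm and in sprouting vessels, gave 2354 and 2577 on the negative arrays. The positive arrays gave 456, 425, 43.7 and 1.84. They held the widest spread among the 9 genes, with an SD of 2.53 on the log2 scale, from 18.5% of the negative mean on array 1 to a signal below the array's own median on array 4. The difference was -4.52 ± 1.15 (limma adjusted p = 0.0135). The second Aplnr probe set, 1423037_at, gave 144 and 125 against 44.9, 36.2, 7.08 and 81.6, and was not called (-1.68 ± 0.58, limma adjusted p = 0.0555). The probe sets disagreed on array 4, which was the lowest of the positive arrays for the first and the highest for the second.

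Tek, the angiopoietin receptor TIE2, gave 143 and 140 on the negative arrays and 94.1, 67.9, 37.2 and 43.2 on the positive ones. The groups did not overlap, but the difference of -1.16 ± 0.39 lay just outside the threshold (limma adjusted p = 0.0505). Endoglin, the product of Eng, is a co-receptor for ligands of the TGF-beta family such as BMP9. Eng gave 175 and 156 against 102, 88.6, 114 and 48.3, again without overlap and not called (-0.89 ± 0.32, limma adjusted p = 0.0696). Its second probe set, 1432176_a_at, gave -0.27 ± 0.58 with overlapping arrays.

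Among the adhesion proteins, Cdh5 gave 166 and 179 on the negative arrays and 71.7, 56.1, 17.5 and 21.9 on the positive ones. The difference was -1.96 ± 0.45 (limma adjusted p = 0.00784). The untested Cdh5 probe set was above the array's median on 1 array of 13, positive day 7 array 4, where it gave 97.4. Cd34, a sialomucin of vessels and blood progenitors, gave 204 and 184 against 68.5, 49.5, 1.48 and 5.63. On the 2 lower positive arrays Cd34 was below the array's own median. The difference was -2.72 ± 0.59 (limma adjusted p = 0.00555).

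Pecam1 was the exception to the pattern. It gave 67.0 and 95.4 on the negative arrays and 163, 189, 70.6 and 55.9 on the positive ones, so that positive arrays 1 and 2 lay above and array 4 below both negative arrays. The difference was 0.37 ± 0.39 (95% interval -0.46 to 1.19, limma adjusted p = 0.556). Without positive arrays 3 and 4, the 2 dimmest as deposited, Pecam1 was called higher, at 1.04 (limma adjusted p = 0.0250), and with the ratio of 3′ to 5′ Gapdh signal as a covariate it was called lower, at -1.87 (adjusted p = 0.0350). The Gapdh ratio did not overlap between these groups, so the fit with it extrapolates between them. The direction of Pecam1 in this sort was therefore not settled by these arrays.

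**Figure D2:**
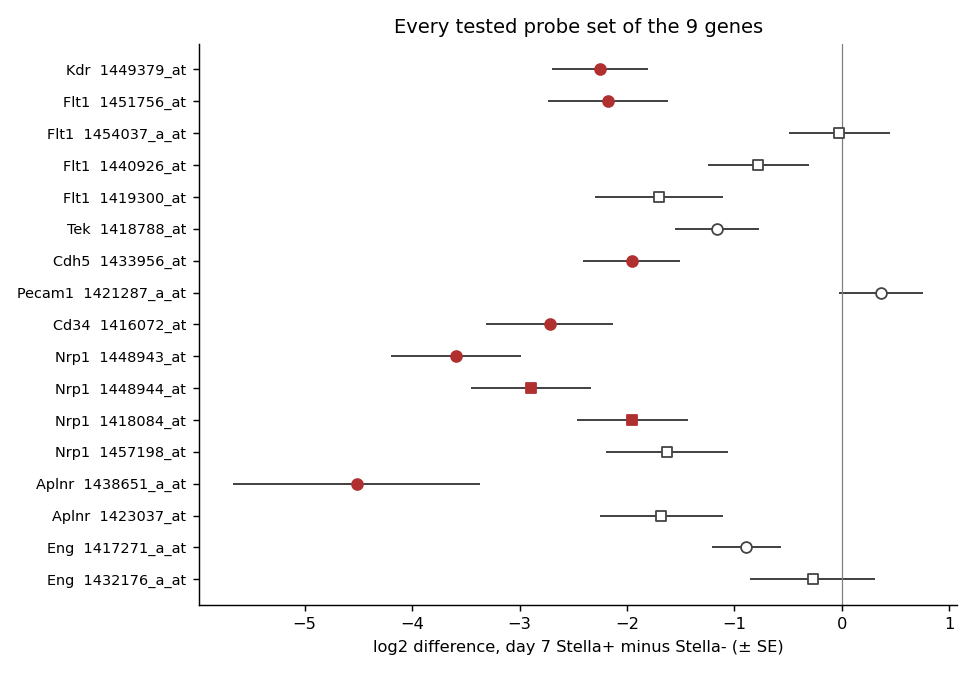
Log2 difference of day 7 Stella-positive minus Stella-negative cells (x axis) for each of the 17 tested probe sets, with bars of 1 SE. Circles are the representative probe sets, squares the others, and filled symbols were called: 8 of 17 were called lower (7.87% of all probe sets), 16 lay below 0, and Flt1 spanned -2.18 to -0.02.

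Counted by probe set, 8 of 17 were called lower, against 7.87% of all tested probe sets. The 6 calls by gene depended on having both negative arrays. Without negative array 1 the count was 2, and without negative array 2 it was also 2, while the median difference was -2.34 and -2.02. Each of these fits has 1 negative array, assumed to vary like the other groups, and the share of all tested probe sets called lower went from 7.87% to 1.2% and 1.88%. Leaving out 1 positive array gave 6 or 7. One hybridisation run held both groups, with negative array 2 and positive arrays 1 to 3, and within it the median difference was -2.16 and only Nrp1 was called, against 2.08% of all tested probe sets lower. This fit too has 1 negative array. Without positive arrays 3 and 4, 5 of the 6 genes stayed lower and Aplnr was not called (-2.46, limma adjusted p = 0.0532).

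The positive arrays fell into pairs for most of the genes. Summed over the 9 representative probe sets, the signal was 1286 and 1213 on positive arrays 1 and 2, 26.5% and 25.0% of the negative mean. On arrays 3 and 4 it was 369 and 324, or 7.61% and 6.67%. These sums mainly describe Aplnr and Nrp1, whose means on the negative arrays were 2466 and 1015 of a summed 4849. Pecam1 stood at 201%, 232%, 86.9% and 68.8% on positive arrays 1 to 4. Kdr stood at 39.2% and 29.9% against 8.67% and 11.6%, and Cdh5 at 41.5% and 32.5% against 10.1% and 12.7%. Tek kept the larger part of its signal on array 1, at 66.7%, and Eng on arrays 1 to 3, at 53.6% to 68.6%.

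**Figure D3:**
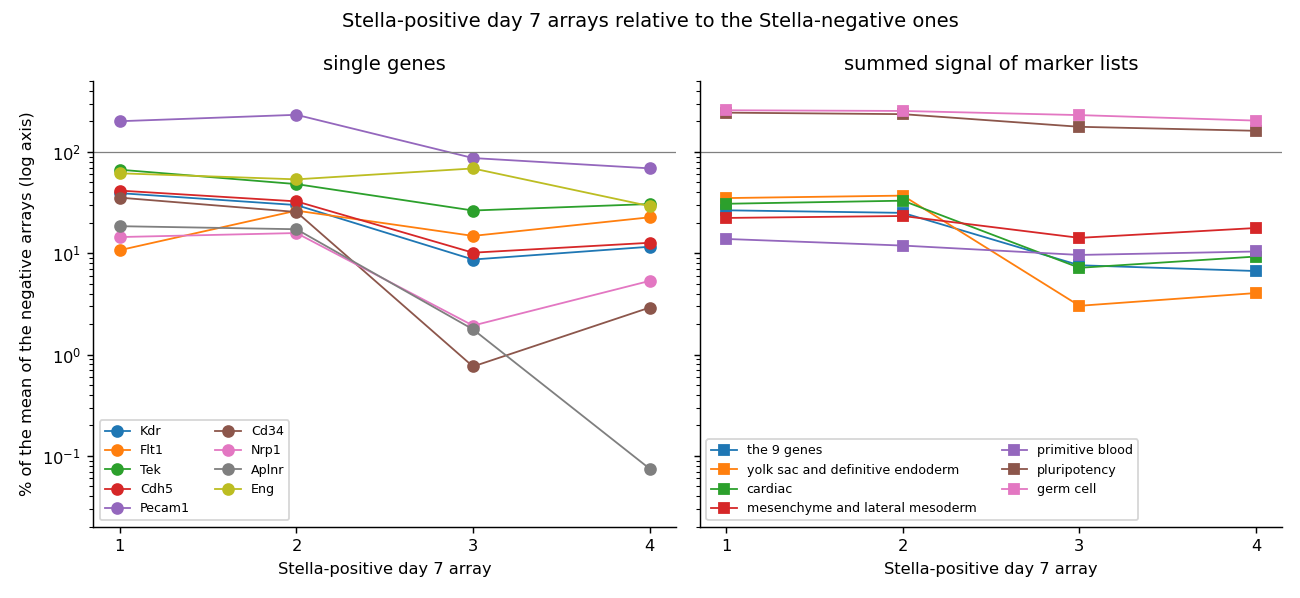
Signal of each Stella-positive day 7 array as a percentage of the mean of the 2 Stella-negative day 7 arrays (log axis), for the 9 genes on the left and for summed marker lists on the right. The 9 genes summed to 26.5% and 25.0% on arrays 1 and 2 and to 7.61% and 6.67% on arrays 3 and 4, and lines only join points of a gene or list. Most of that sum came from Aplnr and Nrp1. Points of a gene below its array's own median, such as Cd34 on arrays 3 and 4, show no resolved level.

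Marker lists of other differentiated cell types moved with these genes, and their part in the result was not tested. Of the tested genes, 11 of 12 endoderm, 10 of 11 cardiac, 9 of 14 mesenchyme and 3 of 10 primitive blood markers were called lower in the positive cells and 0 higher in these lists, beside the 9.07% and 10.2% of all tested genes. The endoderm sum was 27112 and 29706 on the negative arrays, 9945 and 10519 on positive arrays 1 and 2, and 861 and 1150 on arrays 3 and 4. The cardiac sum was 4514 and 4782, then 1430 and 1534, then 334 and 431. The mesenchyme sum was 4741 and 4578 against 661 to 1086, and the blood sum 4414 and 4626 against 435 to 625. The blood sum mainly describes the globins Hbb-y, Hbb-bh1 and Hba-x, whose means on the negative arrays were 2438, 1365 and 315. The endoderm sum mainly describes Ttr, Afp and Rbp4, with means there of 11926.5, 6570 and 4544. The visceral endoderm gene Afp gave 6475 and 6664 on the negative arrays, 2858 and 2898 on positive arrays 1 and 2, and 49.1 and 23.8 on arrays 3 and 4. The embryonic globin Hbb-y gave 2406 and 2470, then 152 and 159, then 17.2 and 0.900. Pluripotency and germ cell markers went the other way, with 7 of 12 and 4 of 11 called higher and 0 lower. The germ cell list includes Dppa3, the gene of the sorted reporter, whose difference was set by the sort itself. Of 5 tested macrophage markers 1 was called lower, Csf1r (-2.10 ± 0.30, limma adjusted p = 0.000276), of 5 trophoblast markers 1 was higher and 1 lower, and of 7 neural markers 0 were called. Some genes stand in more than 1 list, so the counts are not independent. Tfap2c is also a germ cell marker and Hand1 a mesenchyme marker besides the trophoblast list, and Gata6 is in the endoderm and cardiac lists.

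In ESC the sort left no call among the 9 genes. Stella-positive ESC array 2 was hybridised on another day and from another chip lot than the other sorted ESC arrays. In all genes the limma test called 0 lower and 0.00714% higher, a single gene, Dppa3. At an unadjusted limma p under 0.05 stood 2 of the 9, Eng and Nrp1, against 3.73% of all tested genes. Eng gave 377, 185 and 233 on the Stella-negative and 86.4 and 131 on the Stella-positive arrays, a difference of -1.17 ± 0.34 without overlap (limma adjusted p = 0.9999). Its second probe set differed by -1.03 ± 0.62, also without overlap. Nrp1 gave 73.0, 124 and 28.3 against 12.3 and 23.9, a difference of -1.44 ± 0.64 with the same adjusted p.

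None of the other 7 reached that p. Cd34 gave 35.0, 27.6 and 26.7 against 16.7 and 6.60, with no overlap (-0.89 ± 0.63). Aplnr gave 25.8, 307 and 29.3 against 3.84 and 8.29, so that 1 negative array, array 2, stood far above the rest. Both Aplnr probe sets had their highest ESC signal on that array, the second at 90.3. Kdr gave 39.1, 77.4 and 34.7 against 38.8 and 26.7, and Pecam1 185, 115 and 96.6 against 172 and 151, both with overlap. The arrays did not overlap for 4 of the 9 genes, Cd34, Nrp1, Aplnr and Eng, each lower in the positive cells, against 13.4% of all tested genes. The median difference was -0.68, and that of all tested genes -0.04.

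Whether the sort differed between day 7 and ESC was tested as an interaction, and 0 of the 9 genes passed, against 0.207% of all genes lower and 0.6% higher. At an unadjusted limma p under 0.05 stood 15.8% of all tested genes and 4 of the 9: Kdr (-1.81 ± 0.64), Cdh5 (-1.45 ± 0.66), Cd34 (-1.83 ± 0.86) and Nrp1 (-2.15 ± 0.88), with adjusted p from 0.206 to 0.360. Their 95% intervals reached from -4.02 to -0.01. A stronger fall at day 7 than in ESC was thus not established for any of them.

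**Figure D4:**
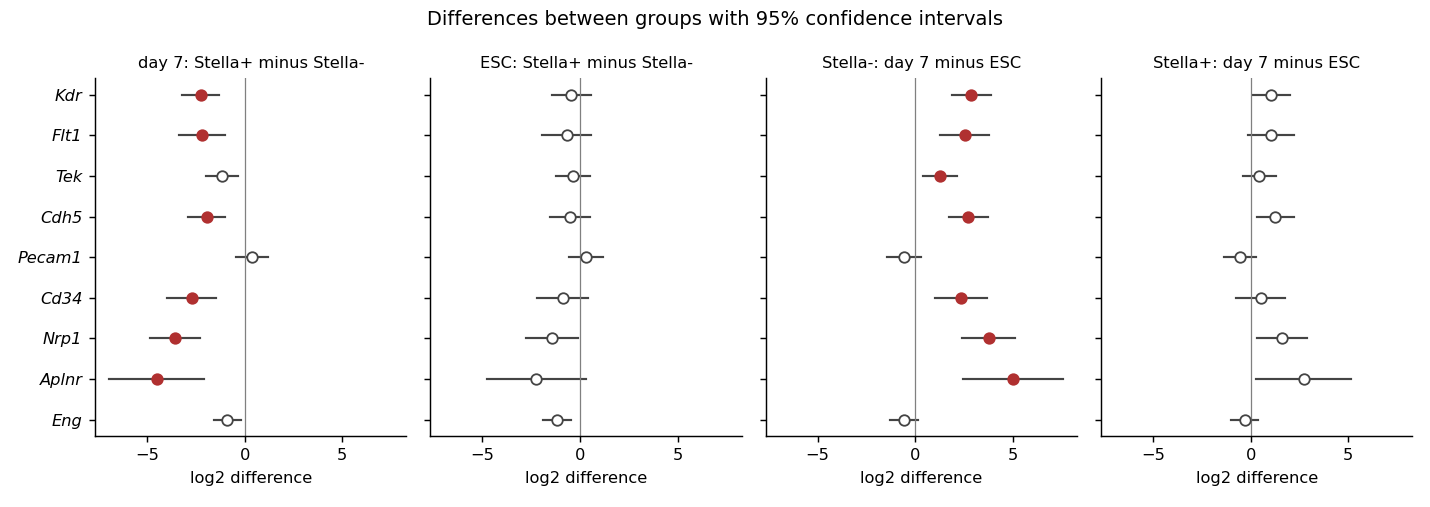
Log2 differences of the 9 genes in 4 comparisons (x axes), with 95% intervals and with filled points where the gene was called. In the day 7 sort 6 genes were called lower, in the ESC sort 0, in Stella-negative cells from ESC to day 7 7 were called higher, and in Stella-positive cells 0.

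Between Stella-negative ESC and Stella-negative day 7 cells, 7 of the 9 genes rose and none fell. Of all tested genes 18.9% were called higher and 16% lower. The ratio of 3′ to 5′ Gapdh signal was 3.03 and 3.18 on these day 7 arrays and 0.80 to 0.87 on the ESC arrays. Differentiation and RNA quality by that ratio therefore cannot be told apart here. Aplnr rose by 5.004 ± 1.21 on the log2 scale, Nrp1 by 3.76 ± 0.64, Kdr by 2.87 ± 0.47, Cdh5 by 2.70 ± 0.48, Flt1 by 2.53 ± 0.59, Cd34 by 2.35 ± 0.63 and Tek by 1.25 ± 0.41, with limma adjusted p from 0.000239 to 0.0275. All 7 had every Stella-negative day 7 array above every Stella-negative ESC array, against 39.4% of all tested genes. The call of Flt1 rested on its representative probe set. Probe set 1419300_at rose by 1.60 ± 0.63 without overlap and was not called (limma adjusted p = 0.0596). Neither was 1440926_at (0.33 ± 0.50) nor 1454037_a_at (0.18 ± 0.50), both with overlapping arrays (limma adjusted p = 0.628 and 0.795). The call of Flt1 was lost in 2 of the alternatives. That of Tek was the least stable: it was lost in 7 of the alternatives, among them either scaling change. Without ESC array 2 the count was 6, without negative day 7 array 1 it was 5 and without array 2 it was 5. Over all tested probe sets the share called higher went from 18.5% to 13.1%, 8.3% and 9.84% in these fits.

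Pecam1 and Eng did not rise in the Stella-negative cells. Pecam1 gave 185, 115 and 96.6 in ESC and 67.0 and 95.4 at day 7, a difference of -0.61 ± 0.41 (limma adjusted p = 0.264), and Eng gave 377, 185 and 233 and then 175 and 156, a difference of -0.59 ± 0.34 (limma adjusted p = 0.190). Every Stella-negative day 7 array lay below every Stella-negative ESC array for both, against 27.2% of all tested genes. The second Eng probe set, 1432176_a_at, differed by -0.19 ± 0.62 with overlapping arrays. With median centring, Eng was called lower, at -1.18 (adjusted p = 0.0307).

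In Stella-positive cells no rise passed the test, and whether the rise differed from that in Stella-negative cells is the same interaction as above. Between Stella-positive ESC and day 7 cells 0 of the 9 genes were called, against 9.02% of all tested genes higher and 6.8% lower, and 4 had an unadjusted limma p under 0.05, against 30.3% of all tested genes. Nrp1 differed by 1.60 ± 0.61, Cdh5 by 1.26 ± 0.45, Kdr by 1.06 ± 0.44 and Aplnr by 2.72 ± 1.15 (limma adjusted p from 0.0681 to 0.119). A second Nrp1 probe set, 1418084_at, was called higher, at 1.64 ± 0.51 (adjusted p = 0.0392). The median difference was 1.03, and that of all tested genes 0.13. The count changed with the arrays and the fit used. Without day 7 positive arrays 3 and 4, 5 genes were called higher, Kdr at 1.84, Cdh5 at 1.91, Cd34 at 1.67, Nrp1 at 2.55 and Aplnr at 4.78, against 7.9% of all tested probe sets. Without array 3 alone 3 were, and without array 4 alone 2. With all arrays kept, 4 were called with the replicate block, with array weights or with a covariate for the Gapdh ratio. The sort comparison in ESC and the negative and positive comparisons share arrays, so they are not independent of one another.

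In unsorted ESC against the sorted ESC 0 of the 9 were called, against 3.24% of all tested genes higher and 3.02% lower, and Flt1 and Nrp1 had an unadjusted limma p under 0.05, against 21.8% of all tested genes. Both unsorted arrays were hybridised on another day and from another chip lot than all the sorted ESC arrays. The lack of a sort and these days and lots therefore cannot be told apart. The 2 unsorted arrays differed strongly. Flt1 gave 183 on array 1 and 32.3 on array 2, Nrp1 215 and 66.6, and Aplnr 208 and 29.4, whereas Kdr gave 73.6 and 64.9 and Cd34 33.5 and 33.7. The mesenchyme list summed to 6486 on array 1 and 1390 on array 2, higher than on any other array for the first, with Col1a1, a type I collagen gene, at 406 and 87.7. Their part in the result was not tested.

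Of 13 tested ligands of these receptors 3 were lower in the day 7 sort and 0 higher, against 9.07% and 10.2% of all tested genes. Vegfc, which acts on the related receptor VEGFR3 and also binds the product of Kdr, fell by 1.69 ± 0.27 on the log2 scale (limma adjusted p = 0.00072), with 240 and 253 on the negative and 60.1 to 76.9 on the positive arrays. Sema3a, the gene of the Nrp1 ligand semaphorin 3A, differed by -1.498 ± 0.41 and Apln, the apelin gene, by -1.15 ± 0.30 (limma adjusted p = 0.0205 and 0.0156). Vegfa gave 207 and 251 against 143, 138, 116 and 25.4, and was not called (-1.24 ± 0.52, limma adjusted p = 0.111), nor was Angpt1, a ligand of Tek (-1.13 ± 0.43, adjusted p = 0.0816). From Stella-negative ESC to day 7, Angpt1 (2.37 ± 0.45), Sema3a (1.92 ± 0.43), Vegfc (1.26 ± 0.29) and Angpt2 (1.23 ± 0.43) rose and Vegfb fell by 1.46 ± 0.52, against 18.9% of all tested genes higher and 16% lower. In the positive cells Vegfb also fell, with a difference of -1.68 ± 0.49 (limma adjusted p = 0.0285), and no other ligand was called there, against 6.8% of all tested genes lower.

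**Figure D5:**
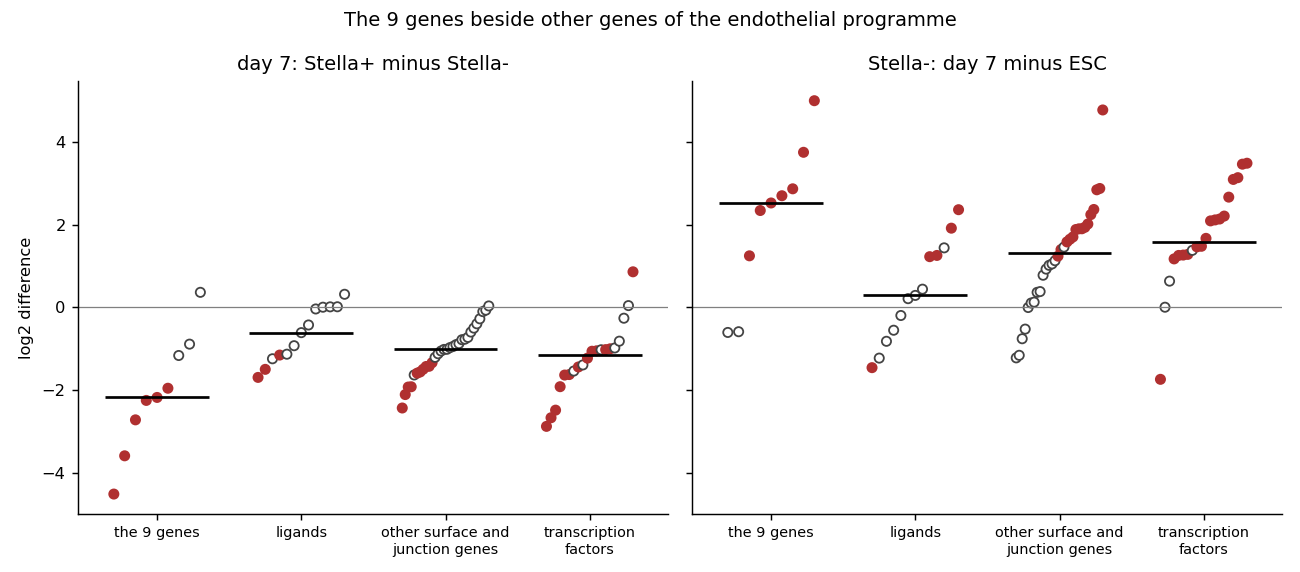
Log2 difference of each tested gene of the 4 lists in the day 7 sort (left) and from Stella-negative ESC to Stella-negative day 7 cells (right), with filled points for called genes and bars at list medians. Of the 9 genes 6 were called lower on the left and 7 higher on the right, with medians of -2.18 and 2.53.

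Of 30 tested genes of a list of other endothelial surface and junction proteins 10 were lower and 0 higher in the day 7 sort, with a median of -1.01, against 9.07% and 10.2% of all tested genes. Efnb2, a ligand of Eph receptors that marks arteries, fell by 2.43 ± 0.46, Cd93 by 2.11 ± 0.62, Esam, a junction protein, by 1.93 ± 0.38 and S1pr1, a sphingosine 1-phosphate receptor, by 1.92 ± 0.51 (limma adjusted p from 0.00246 to 0.0279). From Stella-negative ESC to day 7, 15 of the 30 rose and 0 fell, against 18.9% and 16%. Cd93 rose by 4.78 ± 0.65, from 0.59 to 6.53 in ESC to 337 and 355 at day 7, Icam2 by 2.88 ± 0.65, Esam by 2.85 ± 0.40 and Ptprb, a phosphatase of vessel junctions, by 2.37 ± 0.34. In the positive cells 3 of the 30 rose and 3 fell from ESC to day 7, shares close to the 9.02% and 6.8% of all tested genes. Cd93 (2.55 ± 0.62), Dll4 (1.29 ± 0.41) and Mmrn2 (1.24 ± 0.29) rose, while Rasip1 (-1.93 ± 0.38), Mcam (-1.58 ± 0.50) and Notch4 (-1.47 ± 0.44) fell, with limma adjusted p from 0.00316 to 0.0422.

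Of 20 tested transcription factors of endothelial and blood precursors 12 were lower and 1 higher in the day 7 sort, with a median of -1.14, against 9.07% and 10.2% of all tested genes. Foxc2 fell by 2.88 ± 0.54, Mef2c by 2.67 ± 0.55, Sox17 by 2.49 ± 0.69 and Elk3 by 1.92 ± 0.40 (limma adjusted p from 0.00215 to 0.0217). Mef2c also stands in the cardiac list and Sox17 in the endoderm list, so neither is specific to endothelium. Klf2, a flow-responsive factor of endothelium that ESC also express, rose by 0.86 ± 0.18 (adjusted p = 0.00417). Etv2, which acts early and transiently in precursors of vessels and blood, gave 40.3 and 77.2 against 40.4, 73.5, 46.7 and 81.2 (0.04 ± 0.42, adjusted p = 0.955). From Stella-negative ESC to day 7, 16 rose, led by Mef2c (3.49 ± 0.58), Sox17 (3.47 ± 0.73), Foxc2 (3.14 ± 0.57) and Ets1 (3.10 ± 0.38), and Klf2 fell by 1.74 ± 0.19, against 18.9% of all tested genes higher and 16% lower. In the positive cells 6 rose, among them Ets1 (1.95 ± 0.36), Fli1 (1.54 ± 0.42), Sox7 (1.43 ± 0.38) and Sox18 (1.34 ± 0.35), and Klf2 fell by 1.15 ± 0.18, against 9.02% higher and 6.8% lower.

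Across the 13 arrays, Kdr, Cdh5, Cd34, Nrp1 and Aplnr rose and fell together, with Pearson r from 0.842 to 0.961 over their 10 pairs, the highest between Kdr and Cdh5. Flt1 had r of 0.626 to 0.874 with these 5 and Tek 0.655 to 0.864. Pecam1 had r of -0.312 to 0.212 with the other 8 and Eng 0.001 to 0.316. These values are descriptions over arrays that share groups, scaling and RNA quality, and carry no test. Of all genes tested, those most alike by r were Lratd2, Ralb and Hsd17b11 for Kdr (0.966, 0.966 and 0.964), Igf2, Igfbp5 and Maf for Cdh5 (0.979, 0.977 and 0.971), Podn, Zc3hav1l and Vcan for Nrp1 (0.964, 0.962 and 0.960) and Ctsc, Reln and Zc3hav1l for Aplnr (0.968, 0.967 and 0.961). For Cd34 they were Fkbp9, F5 and Marcks (0.954, 0.951 and 0.949), for Flt1 Cpd, Gjb2 and Irs4 (0.941, 0.937 and 0.937) and for Tek Npr3, Acer2 and Nwd1 (0.920, 0.887 and 0.879). Pecam1 was most like Hr (0.964), then Gtf2a2 and Fam91a1 (0.879 and 0.876), and Eng most like Man2b1, Cpped1 and Btg2 (0.926, 0.910 and 0.881).

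On the positive day 7 arrays the median SD of log2 values was 0.79 over the 9 genes and 0.38 over all tested genes, and on the Stella-negative ESC arrays 0.52 and 0.24. On the 2 negative day 7 arrays it was 0.10 and 0.18.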

How the data were processed

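Each array measured total RNA of 1 sample. Values are MAS5 signal intensity on a linear scale as deposited, with MAS5 named by the submitters' processing notes. Its version, scaling and detection calls were not given in the labels. The array description files gave chip lot and hybridisation run. The members and lists were chosen with earlier results of these data known.

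Each intensity column, as deposited, was scaled to the common trimmed mean (2% trimmed at each end, 105.2), because the trimmed means differed 27.1-fold. A constant of 10.5, 1/10 of that mean, was added before log2. After removal of 64 controls, 30023 of 45037 probe sets passed the filter. A single model of the 5 groups was fitted with limma 3.58.1 in R 4.3.3 (trended prior variance, Benjamini-Hochberg adjustment per comparison), and checked on simulated data. The simulation gave every gene and group the same spread, unlike these arrays, so it does not speak to unequal spread. Genes were named from the platform annotation: 34945 probe sets had 1 symbol, 932 several and 9160 none, and only those with 1 were used. A gene was represented by its brightest such probe set. All 18 member probe sets carry current RefSeq symbols. All 9 members are named, and ligands could be; of each other list, up to 4 called genes per direction with the largest difference were named, besides Etv2 and Col1a1, singled out after their values were seen. The 3 most alike genes were ranked by Pearson r over 13 arrays. No columns were identical (0 pairs). Same-numbered samples of different groups did not deviate together (r from -0.131 to 0.0740), so no pairing was used. Alternatives are given in the closing section. The number of arrays limits the precision.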

Additional observations from a re-analysis of the deposited data

How the results depend on the processing

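There were 28 alternatives, 13 of which left out 1 array. Of these, 19 apply to the ESC sort, which kept 0 calls among the 9 genes in each. In the day 7 sort the count was 6 in the main analysis, ranged from 2 to 7 when 1 array was left out, and was 1 within the hybridisation run. Of the 6 genes, Nrp1 was called under all 21 alternatives that apply to this sort; Kdr lost its call in 1, Cdh5 and Cd34 in 3 each, Aplnr in 4 and Flt1 in 5, and none changed sign. For the Stella-positive cells from ESC to day 7 the count was 0 in the main analysis, 4 with the replicate block, 4 with array weights, 4 with the Gapdh ratio as a covariate, 5 without the 2 dimmest arrays, and 0 to 3 when 1 array was left out. For the Stella-negative cells it was 7, and 5 to 7 when 1 array was left out. The interaction had 6 calls with the Gapdh ratio as a covariate, and the unsorted comparison 0 to 1 when 1 array was left out (Flt1, without unsorted array 2, which leaves 1 unsorted array assumed to vary like the other groups). The Gapdh ratio turned Pecam1 to -1.87 in the day 7 sort, 3.58 in the Stella-negative cells and -2.28 in the interaction. The cause was not tested. That ratio nearly follows the groups, so fits with it extrapolate between them. With it the median of the 9 genes went from -2.18 to -3.77 in the day 7 sort and from 2.53 to 6.11 in the Stella-negative cells. In the interaction with this covariate 5.73% of all tested probe sets were called lower and 3.56% higher. The replicate block, by the number in the titles, gave 7 calls in the day 7 sort, with Pecam1 the added one at 0.93, and 8 in the Stella-negative cells, 7 higher and Pecam1 lower at -0.90. A block by the number in the array description files, which differs from that in the titles, gave 8 in the day 7 sort; this block and the hybridisation run as a random block (correlation 0.252) were chosen after seeing the data. Run as a fixed factor gives the within-run estimates. Median centring moved the median of all probe sets in the day 7 sort from -0.12 to 0.12 and the share of higher calls from 52.1% to 77.7%, with 6 members still lower. In the Stella-negative cells it moved that share from 55.1% to 16.8%, in the Stella-positive cells from 53.0% to 12.1% and in unsorted ESC from 53.3% to 26.6%. Uncalled values that changed sign and stayed uncalled numbered 1 in the day 7 sort, 1 in the ESC sort, 1 and 6 in the Stella-negative and Stella-positive cells, 7 in the interaction and 5 in the unsorted comparison. MAS5 signal near the array median, where most members lay in ESC, limits what can be read from it.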
